A study of Mus musculus with 2 samples.

Results

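Sites where the corepressor SMRT was strongly and about equally enriched in mouse liver at both sampled times are described here. SMRT occupancy had been mapped by chromatin immunoprecipitation and sequencing in livers of untreated C57BL/6 males, 12 weeks old and fed ad libitum. One pooled library of 4 mice stands for Zeitgeber time 10 (ZT10, 10 h after lights-on, labelled 5 pm) and another of 4 mice for ZT22 (labelled 5 am), to show how occupancy differs between these times. With 1 library per time there was no replicate check, so no p-value is given, and intervals are exact Clopper-Pearson 95% intervals that cover counting error over sites only. The labels and the names of the individual peaks disagree on the clock time: peaks of the sample labelled 5 pm are named 5 am, and the reverse. Directions below follow the sample labels and would turn around if the peak names were right. Lysates came from whole liver, so the cell type behind a site is unknown.

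A site was included when a peak of the ZT10 list and a peak of the ZT22 list overlapped by 1 bp or more, neither overlapped any further peak of the other list, both carried a score of 3.0 or more, and the higher score was less than 1.5 times the lower. The score is the authors' value for each peak, on a scale not given in the sources used here. Of 14578 such one-to-one pairs, 2182 (15.0%, 14.4 to 15.6) were strong steady sites. They took up 10.2% of the 21370 peaks listed for ZT10 and 9.06% of the 24078 listed for ZT22. Both scores chose the sites, so scores are given as a description. All positions are 1-based in build mm8, and genes and sequences at the sites were not analysed here.

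SMRT does not bind DNA itself. Nuclear receptors without an activating ligand, among them the thyroid hormone and retinoic acid receptors, hold it on chromatin. It activates the histone deacetylase HDAC3, which removes acetyl groups from histones and keeps nearby genes low. In liver, this corepressor machinery is known for its part in daily rhythms of metabolism, where the heme-binding receptors of the Rev-erb family recruit the related corepressor NCoR and HDAC3 to genes of lipid metabolism.

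Steadiness was the usual state of pairs strong in both lists. Of the 2235 one-to-one pairs with both scores at 3.0 or more, 2182 (97.6%, 96.9 to 98.2) stayed below the ratio of 1.5. Over all one-to-one pairs the share below that ratio was 88.8%. It was greater at higher scores, though not at each step. By the lower score of the pair it went from 81.7% at scores of 1.0 to 1.4 through 91.9% at 2.0 to 2.4 and 96.6% at 3.0 to 3.4 to 99.5% at 5.0 to 6.9. The lower score is also the divisor of the ratio, so the grouping may shape part of this rise, which was not tested. The steady sites are therefore nearly the whole set of pairs strong in both lists. That set was itself narrowed by the limit of 3.0 on both scores. It left out 276 ZT10 peaks and 105 ZT22 peaks at 3.0 or more whose partner was under 3.0 at a ratio of 1.5 or more. The contrast with all pairs was thus partly set by the rule. The remaining 53 pairs went past the ratio, 41 with the higher score at ZT10 (1.83% of the strong pairs, against 7.55% of all pairs) and 12 with the higher score at ZT22 (0.537%, against 3.61%). These smaller shares too were partly set by the limit on both scores.

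**Figure D1:**
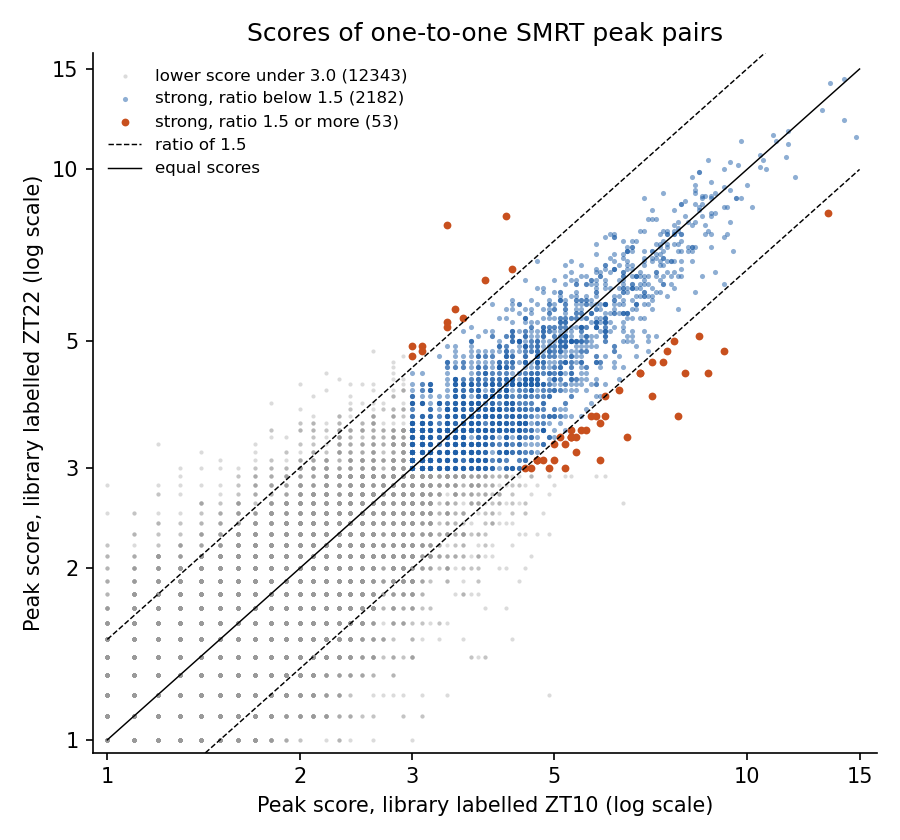
Score of each one-to-one peak pair in the library labelled ZT10 (horizontal, log scale) and in that labelled ZT22 (vertical, log scale). The 2182 strong steady sites (blue) fill the band between the dashed lines of a 1.5-fold ratio, 53 strong pairs (orange) lie on or outside it, and 12343 pairs with a lower score under 3.0 are grey.

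Scores of the steady sites at ZT10 had a median of 4.2 and a highest value of 14.8, and at ZT22 a median of 4.0 and a highest value of 14.4. The medians of the complete lists were 1.7 and 1.6. The middle 50% of the sites lay between 3.5 and 5.1 at ZT10 and between 3.5 and 5.0 at ZT22, so most sites stood close to the lower limit and a thin tail reached far above it. Across the 2182 sites the ZT10 and ZT22 scores were correlated with r = 0.90 (Pearson) and rho = 0.79 (Spearman). Over all 14578 one-to-one pairs these values were 0.90 and 0.80, so the correlation was not particular to the steady sites. All points share their libraries, and the rule bounds the steady sites to a narrow band.

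Within the allowed band, scores leaned slightly toward ZT10. The ZT10 score was higher at 1169 sites (53.6%), the ZT22 score at 868 (39.8%), and 145 sites (6.65%) had equal scores. Over all one-to-one pairs these shares were 51.9%, 39.5% and 8.59%, so the lean of the steady sites was near that of the lists as a whole. The median ratio of ZT22 to ZT10 score was 0.974, and the middle 90% of sites ran from 0.756 to 1.23. Over all pairs the median was 0.960 and the middle 90% ran from 0.639 to 1.42. Without regard to direction, the higher score exceeded the lower by a median factor of 1.1, which narrowed from 1.12 at sites with a lower score of 3.0 to 3.4 to 1.05 at the 112 sites of 7.0 or more.

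The 10 strongest steady sites, ranked by the lower of their scores, lay on 9 chromosomes. Of these sites 5 scored higher at ZT22 and 5 at ZT10. The site on chromosome 2 at 25294623 to 25294822 scored 14.2 at ZT10 and 14.4 at ZT22. That on chromosome 7 at 6014183 to 6014382 scored 13.5 and 14.2. Both were among the 5 highest scores of each list, and the second was called at the same position in both. The site on chromosome 18 at 75725190 to 75725389 scored 13.1 at ZT10 and 12.7 at ZT22. On chromosome 5, the site at 140456607 to 140456806 scored 14.2 and 12.2. The widest gap of the 10 belonged to chromosome 19 at 5803589 to 5803788, the highest score of the ZT10 list, with 14.8 there and 11.4 at ZT22, a ratio of 0.770. A further site on chromosome 19, at 4989081 to 4989280, went the other way with 11 at ZT10 and 11.5 at ZT22.

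The closest scores of the 10 were found on chromosomes 11 and 4. The site on chromosome 11 at 58118631 to 58118830 had 11.6 at ZT10 and 11.7 at ZT22. That on chromosome 4 at 137591679 to 137591878 had 11.1 and 11.2. Both ratios were 1.01, a difference of 1 step in the last printed decimal of the score. A chromosome 6 site (136432587 to 136432786) was lower at ZT22, with 11.6 and 11.1, as was a chromosome 8 site (107481075 to 107481274), with 11.5 and 10.5. Among chromosomes with none of these 10, chromosome 14 led with a site at 72243987 to 72244186, scored 10.5 at ZT10 and 10.6 at ZT22. A chromosome 1 site at 90119287 to 90119486 (10.6 and 10.4) and a chromosome X site at 97425273 to 97425472 (10.0 and 9.4) followed. Chromosome X had only 7 steady sites in all.

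The limits of the rule ran through a continuous spread of values. Just inside the score limit were a chromosome 11 site (119116139 to 119116338) and a pair of chromosome 12 sites (80998873 to 80999072 and 99836324 to 99836523), each with 4.4 at ZT10 and 3.0 at ZT22. Just outside lay pairs on chromosome 11 at 118028026 to 118028225 (2.9 at ZT10 and 4.3 at ZT22), chromosome 6 at 72513755 to 72513954 (4.3 and 2.9) and chromosome 16 at 34806888 to 34807087 (2.9 and 4.2). Ties were broken by the sum of both scores, so these examples are unusually unequal. Over all steady sites with a lower score of 3.0 to 3.4, the median factor between the scores was 1.12. At the ratio limit, the site at 128486067 to 128486266 of chromosome 4 was still included with 5.5 at ZT10 and 3.7 at ZT22. So were those at 64258074 to 64258273 of chromosome 13 (5.2 and 3.5) and 19017204 to 19017403 of chromosome 14 (5.9 and 4.0). Pairs at 61509056 to 61509255 of chromosome 18 (6.0 and 4.0), 32526160 to 32526359 of chromosome 2 (5.1 and 3.4) and 125342242 to 125342441 of chromosome 5 (4.5 and 3.0) stood exactly at 1.5 and were not.

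Most strong peaks of either list were steady sites, and many others missed the rule only through a partner under 3.0. Of the 3296 ZT10 peaks with a score of 3.0 or more, 2182 (66.2%) belonged to a steady site. A further 662 (20.1%) had a partner below 3.0 (2.1 to 2.9, median 2.7) but a ratio under 1.5, 276 (8.37%) had a partner below 3.0 and a ratio of 1.5 or more, and 123 (3.73%) overlapped no ZT22 peak. Of the 2877 ZT22 peaks at 3.0 or more, 2182 (75.8%) belonged to a steady site, and 394 (13.7%), 105 (3.65%) and 143 (4.97%) fell into these other classes. No strong peak was lost for having several partners. Among the 100 highest scores, 86 were steady sites in the ZT10 list and 95 in the ZT22 list, and among the 1000 highest 908 and 952.

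A factor of 1.5 in rank is not the same limit as a factor of 1.5 in score. When a pair instead had to stand within the first 3296 ranks of both lists with ranks less than 1.5 times apart, 1397 of 2406 pairs (58.1%) met the rule. Of these, 1287 were also steady by score, which is 92.1% of the 1397 and 59.0% of the 2182. A score of 3.0 stood at rank 2889 in the ZT10 list and at rank 2626 in the ZT22 list. In the ZT10 list a score of 4.4 stood at rank 987, so scores within a factor of 1.5 could lie much farther apart in rank. The smaller share by rank therefore does not show that ranks moved while scores held.

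Peak centres of the steady sites lay close together in the 2 libraries. The rule uses position only through the 1 bp overlap, which lets centres lie up to 199 bp apart. The median distance was 12 bp (11 to 13), and the middle 50% of sites lay between 5 and 25 bp. Centres were within 10 bp at 45.1% of the sites (43.0 to 47.2) and at the same base at 57 sites (2.61%). Among one-to-one pairs with a lower score under 3.0, the median was 21 bp, and 28.6% (27.8 to 29.4) lay within 10 bp. Those intervals do not overlap.

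Alignment became tighter with score, and among the steady sites it differed little with the ratio. The median distance between centres went from 22 bp at scores of 1.0 to 1.4 to 17 bp at 2.5 to 2.9. For the steady sites it went on from 15 bp (14 to 17) at 3.0 to 3.4 to 11 bp at 4.0 to 4.9, 9 bp at 5.0 to 6.9 and 6 bp (5 to 9) at 7.0 or more. No step was seen at 3.0. Among steady sites with a lower score of 3.0 to 3.9, the median was 15 bp at ratios below 1.1, 14 bp at 1.1 to below 1.2 and 16 bp at 1.2 to below 1.5. At scores of 4.0 or more these medians were 9, 9 and 10 bp. Past the ratio of 1.5, the 41 strong pairs higher at ZT10 had a median of 19 bp (12 to 34), with 31.7% (18.1 to 48.1) within 10 bp, and the 12 higher at ZT22 had one of 11.5 bp (6 to 16). The ZT22 centre lay at the higher coordinate at 1081 sites and at the lower coordinate at 1044, a nearly even split.

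**Figure D2:**
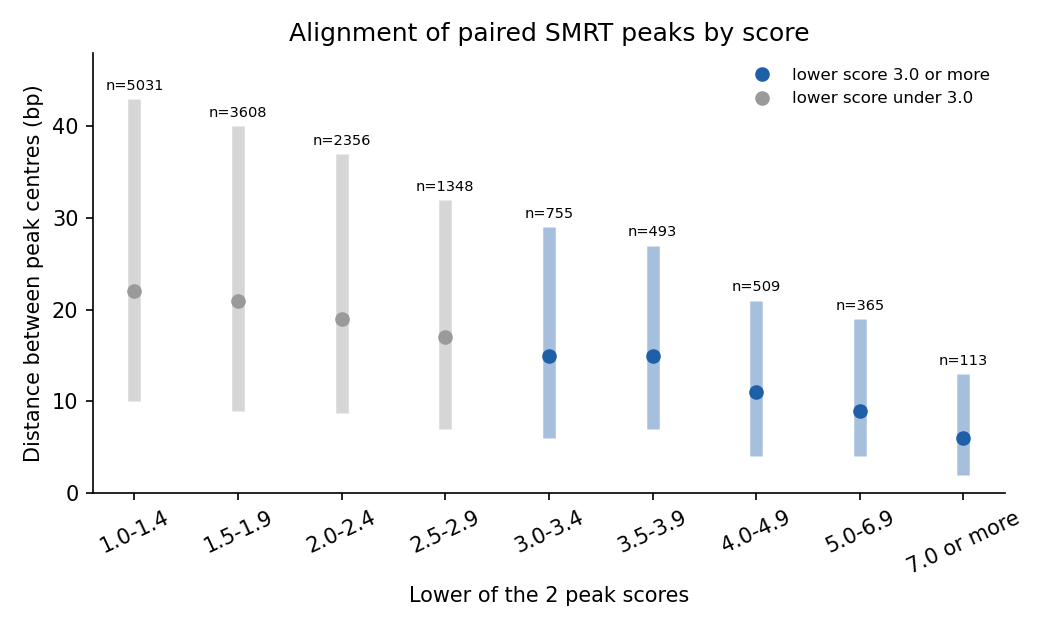
Distance between the ZT10 and ZT22 peak centres (vertical, bp) for one-to-one pairs grouped by the lower of their scores (horizontal). Points are medians, bars span the middle 50% of pairs and n counts pairs. The median goes from 22 bp at the lowest scores to 6 bp at 7.0 or more.

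A few strong sites were displaced. At 28 sites (1.28%) the centres were more than 100 bp apart, against 4.57% of the pairs with a lower score under 3.0. Of the 10 strongest sites, 9 had centres within 20 bp, 3 of them at the same base. The exception was the strongest, on chromosome 2, where the ZT22 peak at 25294715 to 25294914 was centred 92 bp from the ZT10 peak and no other peak of either list lay within 5 kb. Displaced sites named after their values were seen include chromosome 5 at 123442228 to 123442427, with 190 bp between centres and scores of 3.0 and 3.2, and chromosome 10 at 79652222 to 79652421, with 138 bp and scores of 6.0 and 6.7.

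Steady sites had other SMRT peaks nearby more often than weaker pairs had. Another peak of the same list was centred within 5 kb at 53.8% of the sites (51.6 to 55.9) in the ZT10 list and at 55.4% (53.3 to 57.5) in the ZT22 list. Pairs with a lower score under 3.0 had one at 40.9% (40.1 to 41.8) and 44.3% (43.4 to 45.2). At 1013 steady sites (46.4%) a neighbour was present in both lists, at 160 in the ZT10 list only, at 196 in the ZT22 list only, and at 813 (37.3%) in neither. Strong pairs past the ratio were few: of the 41 higher at ZT10, 53.7% (37.4 to 69.3) had a neighbour in the ZT10 list and 63.4% (46.9 to 77.9) in the ZT22 list, intervals that include the shares of the steady sites. Among the weaker pairs, 33.6% had a neighbour in both lists and 48.3% in neither. Single neighbours were the most frequent form, with 1 neighbour at 733 sites in the ZT10 list and at 712 in the ZT22 list, and no site had more than 6.

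The share with a neighbour went up with score at low scores and levelled off among the steady sites. In the ZT10 list it was 34.7% for pairs with a lower score of 1.0 to 1.4 and 48.4% at 2.5 to 2.9. Among the steady sites it was 55.0% (51.3 to 58.7) at 3.0 to 3.4, 53.4% at 5.0 to 6.9 and 46.4% (37.0 to 56.1) at 7.0 or more. The ZT22 list gave 37.9%, 52.2%, 57.6% (53.9 to 61.2), 54.0% and 42.9% (33.5 to 52.6) for the same scores. Within the ZT22 list the intervals of the lowest and the highest class of steady sites did not overlap, whereas in the ZT10 list they did. The classes between were not in order. At 3.5 to 3.9 the share was 52.3% in both lists, and at 4.0 to 4.9 it was 55.2% for ZT10 and 59.1% for ZT22. Of the 10 strongest sites, 4 had no neighbour in either list.

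**Figure D3:**
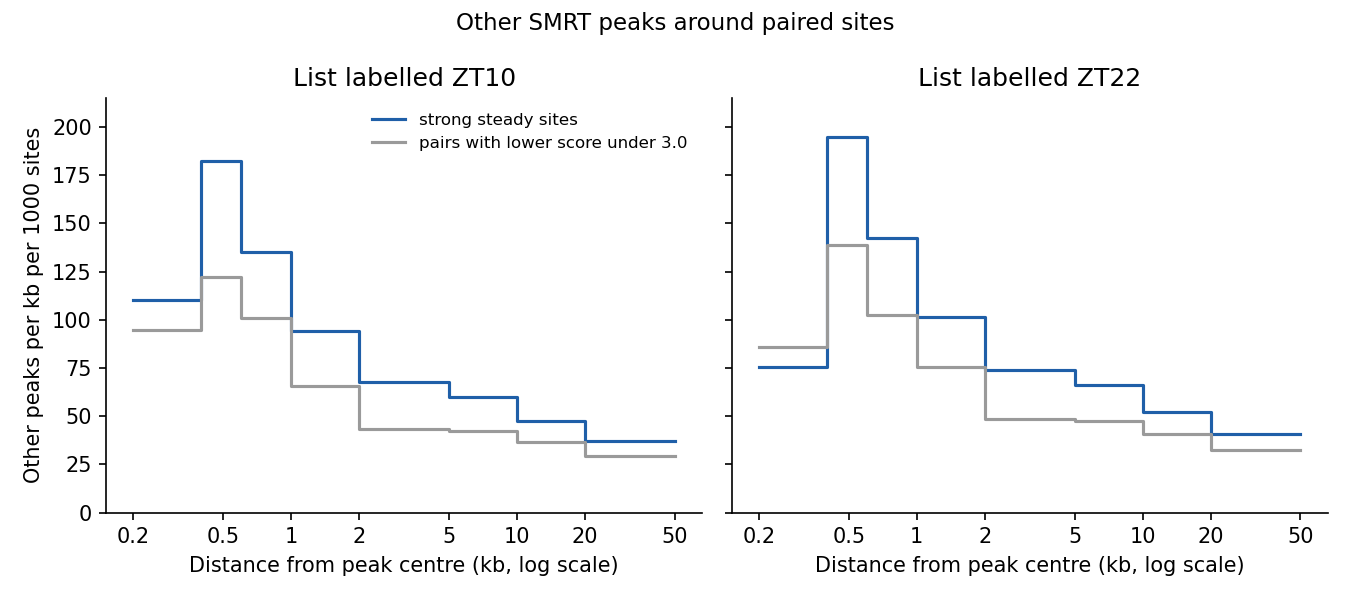
Density of other peaks of the same list (vertical, peaks per kb per 1000 sites) by distance from the peak centre (horizontal, kb, log scale), in the list labelled ZT10 (left) and that labelled ZT22 (right). Blue lines are steady sites and grey lines pairs with a lower score under 3.0. Density is highest at 400 to 600 bp, and the blue line is above the grey in each distance bin except 200 to 400 bp at ZT22.

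Neighbours were densest within the first kilobase. Around the steady sites, other ZT10 peaks numbered 182 per kb per 1000 sites at 400 to 600 bp, 94.4 at 1 to 2 kb, 59.9 at 5 to 10 kb and 37.1 at 20 to 50 kb. Around the weaker pairs these densities were 122, 65.7, 42.2 and 29.1. The ZT22 list gave 195, 101, 66.2 and 40.6 around the steady sites and 139, 75.5, 47.4 and 32.7 around the weaker pairs. Below 400 bp density was lower again (110 and 75.6 around the steady sites), and the closest centres of a list were 196 bp apart at ZT10 and 224 bp at ZT22. Peaks are 200 bp wide, so a neighbour in the first kilobase may belong to the same broad region; this was not tested.

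With all scores under 3.0 pooled, weaker shared pairs next to a steady site had a ratio below 1.5 about as often as those elsewhere. One-to-one pairs with a lower score under 3.0 numbered 762 within 5 kb of a steady site, and 87.4% of them (84.8 to 89.7) had a ratio below 1.5. Farther away the share was 87.2% (86.6 to 87.8) of 11581 pairs. At lower scores of 2.5 to 2.9 the near pairs had the smaller share, 86.5% (79.5 to 91.8) of 133 against 96.4% (95.2 to 97.4) of 1215. The shares were 80.5% near and 81.7% far at 1.0 to 1.4, and 87.7% and 89.0% at 1.5 to 1.9. At 2.0 to 2.4 they were 93.8% and 91.7%. Intervals overlapped in these classes. The pooled sets differ in score: 190 of the 762 near pairs were at 1.0 to 1.4, against 4841 of the 11581 farther ones. The median ratio of ZT22 to ZT10 score was 0.943 (0.923 to 0.962) for the near pairs and 0.957 (0.95 to 0.964) for the farther ones. Across all 772 near pairs outside the set, strong ones past the ratio included, the log2 ratio of a pair and that of its nearest steady site had a Pearson r of 0.07, and the 2 lay on the same side of equal scores in 337 of 654 cases (51.5%) with unequal scores.

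Peaks outside the set overlapped the other list at 67.0% (64.2 to 69.7) near a steady site and 64.6% (63.9 to 65.3) farther away for ZT10, and at 61.2% (58.5 to 63.9) and 56.4% (55.7 to 57.1) for ZT22. The near peaks also scored higher, with medians of 1.9 against 1.6 and 1.8 against 1.5. Among ZT10 peaks of like score the order turned in 3 of 4 score classes, in 2 of them with intervals apart. For ZT10 peaks outside the set with scores of 2.5 to 2.9, 83.6% (77.3 to 88.7) of the 177 within 5 kb of a steady site overlapped a ZT22 peak, against 93.6% (92.3 to 94.8) of 1606 farther away. At scores of 1.5 to 1.9 the shares were 63.0% (57.5 to 68.3) and 71.5% (70.2 to 72.8). At 2.0 to 2.4 they were 82.1% (76.8 to 86.7) and 87.7% (86.5 to 88.8), with overlapping intervals, and at 1.0 to 1.4 they were 42.3% and 41.3%. In the ZT22 list the intervals overlapped in each of these score classes, with 82.0% (75.8 to 87.2) near and 84.9% (83.1 to 86.6) far at 2.5 to 2.9. Whether the lists differ in this was not tested.

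Steady sites mostly followed the spread of all peaks over the chromosomes. Chromosome 11 carried the most, 180 sites or 8.25% (7.13 to 9.48), beside 7.87% of ZT10 and 7.80% of ZT22 peaks. Chromosome 2 followed with 172 sites. Chromosome 18 had 45 sites, 2.06% (1.51 to 2.75), against 2.81% and 2.9% of the listed peaks. There 11.1% (8.18 to 14.5) of the one-to-one pairs were steady sites, below the 15.0% of the genome. Chromosome X held 7 sites, 0.321% (0.129 to 0.660), against 0.716% of ZT10 and 0.494% of ZT22 peaks. Of 20 chromosomes compared, the interval left out the share of listed ZT10 peaks on these 2 and that of ZT22 peaks on chromosome 18 alone. The intervals are not adjusted for the 20 comparisons. The separation of chromosome 18 from the ZT10 share was lost under some other settings, given in the last section.

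**Figure D4:**
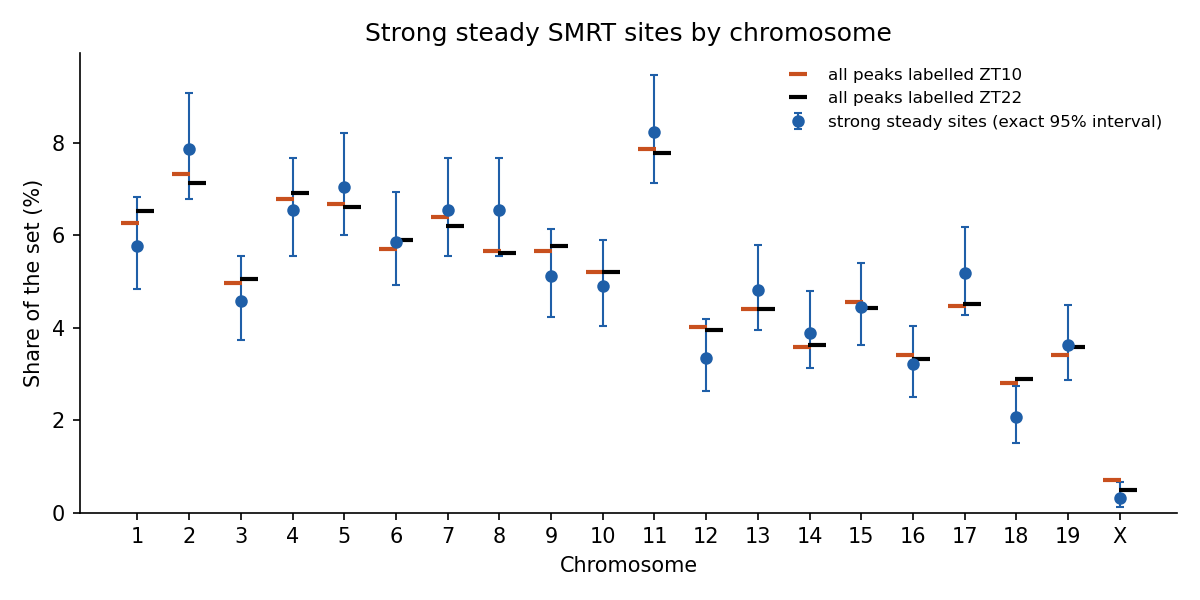
Share of the 2182 strong steady sites on each chromosome (blue, exact 95% interval) beside the share of all listed ZT10 peaks (orange) and ZT22 peaks (black), in percent. Chromosome 18, at 2.06%, lies below both lists, and chromosome X, at 0.321%, below the ZT10 list.

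Some steady sites stood in groups. Joining sites with centres up to 10 kb apart placed 500 of them (22.9%, 21.2 to 24.7) in 213 groups, of which 172 were pairs. The largest held 8 sites over 22.1 kb on chromosome 13, from 23438800 to 23461057. Scores within it were 3.2 to 7.8 at ZT10, those at ZT22 were 4.2 to 8.1, and 6 of the 8 sites were higher at ZT22. The strongest of them, at 23440406 to 23440605, scored 7.8 and 8.1. The flanking sites at 23438800 to 23438999 (6.9 and 6.4) and 23460858 to 23461057 (6.0 and 5.4) were the 2 that went the other way.

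The next groups held 7 sites each. One spanned 9.63 kb on chromosome 19 from 12069298 to 12079092, with scores of 3.0 to 5.0 at ZT10 and 3.1 to 5.2 at ZT22. Of its sites 6 were higher at ZT22, among them that at 12069298 to 12069497 with 3.6 and 5.2. The other lay on chromosome 13 from 23524583 to 23537961, with 3.6 to 5.2 at ZT10 and 4.1 to 5.3 at ZT22. There 5 sites were higher at ZT22, 1 was higher at ZT10 and the site at 23533874 to 23534073 scored 5.2 in both. The median ratios of the 3 groups were 1.12, 1.13 and 1.13, above the 0.974 of all steady sites. Each group comes from the same pair of libraries, and its sites are not replicates.

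**Figure D5:**
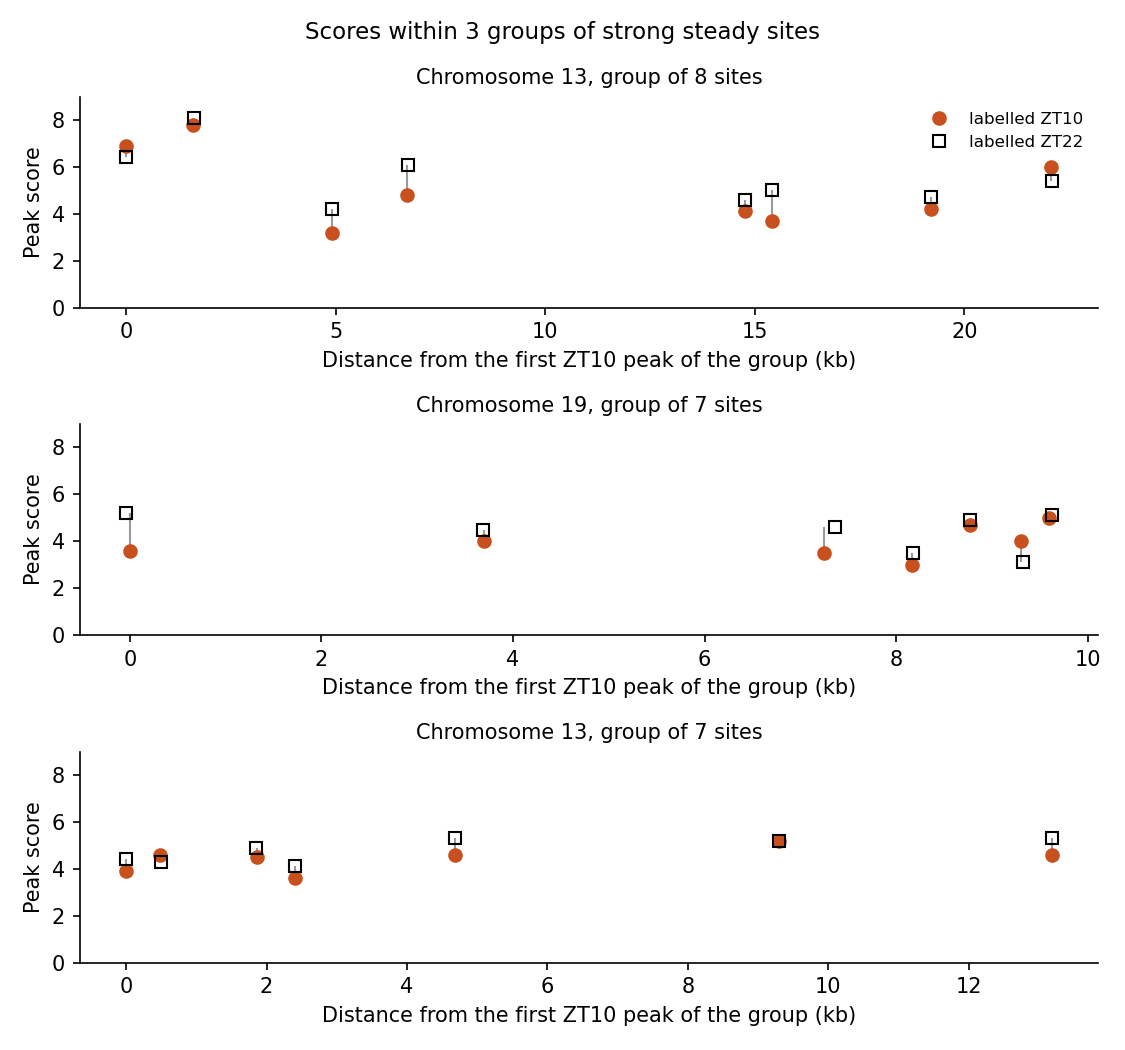
Scores (vertical) of the sites in the 3 largest groups of strong steady sites, by distance from the first ZT10 peak of the group (horizontal, kb). Orange discs are the library labelled ZT10 and open squares that labelled ZT22. Squares lie above discs at 6 of 8, 6 of 7 and 5 of 7 sites.

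Counted in windows of 1 Mb, steady sites occurred in 932 windows, of which 448 held 1 site and 110 held 5 or more. The fullest was chromosome 13 from 23000001 to 24000000, with 17 sites among 44 ZT10 and 48 ZT22 peaks. Of these sites 13 were higher at ZT22 and 3 at ZT10. This window contains both chromosome 13 groups named above, of 8 and 7 sites with 6 and 5 higher at ZT22. Its lean is therefore largely theirs and not a separate result. Chromosome 13 from 21000001 to 22000000 held 16, with 12 higher at ZT22 and 4 at ZT10, and 48.6% and 59.3% of the one-to-one pairs in these windows were steady sites. Chromosome 5 from 125000001 to 126000000 also held 16, with 11 higher at ZT22 and 5 at ZT10, or 31.4% of its pairs. Weaker and strongly differing pairs of the same windows did not all lean this way: their median ratios were 1 and 1.29 in the chromosome 13 windows, and on chromosome 5 as many (17) were higher at ZT22 as at ZT10. Nor did each of the next fullest windows, looked up after seeing the first 3: chromosome 2 from 167000001 to 168000000, with 15 steady sites, had a median ratio of 0.9. Chromosome 13 was the only autosome whose steady sites had a median ratio above 1, at 1.02 over 105 sites. Without those 2 windows it was 1 over 72 sites, with 29 higher at ZT22 and 34 at ZT10. The other autosomes lay between 0.943, on chromosome 18, and 1.

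Over all adjacent steady sites, groups included, the ratios of neighbours were only weakly related. For adjacent sites up to 1 kb apart, the log2 ratios had a Pearson r of 0.09 over 69 pairs, and 30 of 65 pairs with unequal scores (46.2%) lay on the same side. At 2 to 5 kb r was 0.06 over 101 pairs, and at 50 to 200 kb it was -0.01 over 396. At 1 to 2 kb it reached 0.32, on 44 pairs. The rule keeps each ratio within a narrow range, which limits any such correlation.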

How the data were processed

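Peak lists of 2 SMRT libraries were used, 1 per time. Per the submitters' processing notes, HOMER was used and the build was mm8. For the aligner, calling settings, input control and read depth, nothing is stated in the sources used here. The authors deposited each peak as a 200 bp interval with a score of 1 decimal, from 1.0 upward; its scale is not stated, so ratios between lists may carry a difference in scaling. Groups follow the sample labels. Overlaps (14602, of which 14578 were one-to-one pairs) were found in Python 3.11.15 with NumPy 2.4.6, pandas 2.3.3 and SciPy 1.17.1. They matched the number found by bedtools 2.31.1, and the rule was checked on simulated lists. Limits were applied to scores as whole multiples of 0.1. Neighbours were other peaks of the same list with centres within 5 kb. Intervals of medians are exact binomial intervals on ranks. The members, lists and limits were chosen with earlier results of these data known. Sites named are the 10 with the highest lower score, the 3 leading sites of chromosomes without one of these, 3 on each side of each limit, and the 3 fullest groups and windows; displaced sites were added after seeing their values. Planned gene lists were not used, since the lists name no genes and no mm8 annotation was used here.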

Additional observations from a re-analysis of the deposited data

How the results depend on the processing

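Read depth and replicate spread are unknown, so the scores limit every statement on steadiness. Of the results, 10 were recomputed with other limits, another overlap and other partner and rank rules, the 3 on neighbours also with other distances, and compared with their counting intervals. Groups, windows, density profiles and displaced sites were not recomputed. A score minimum of 2.5 gave 3468 steady sites, 96.8% of strong pairs, a median of 14 bp between centres and 51.6% with a ZT10 neighbour. A minimum of 4.0 gave 971 sites, 98.4%, 10 bp, and 9.58% of sites on chromosome 11. The tighter ratio limit left 83.6% of strong pairs with a median ratio of 0.982, and a limit of 2 kept 99.9%. Steadiness by rank gave 1397 sites, 58.1%, a median ratio of 0.958 for the sites and of 0.958 for their shared neighbours. With neighbours up to 2 kb away, 33.0% of sites had one at ZT10 and 34.0% at ZT22, and up to 10 kb 68.4% and 71.2%. Under 50% overlap and mutual best partners, 2154 and 2182 sites met the rule, and the other recomputed values stayed within the main intervals. The median ratio stayed below 1 under each alternative. The share of sites higher at ZT10, an alternative result added after seeing the data, was 50.8% under the tighter ratio limit and 65.5% by rank. A score of 3.0 stood at rank 2889 at ZT10 and 2626 at ZT22, and 4.1 at 1253 and 1053. Pairs of like rank therefore tend to have the higher score at ZT10. The 65.5% and the sites' median ratio by rank were thus partly set by that rule. No paired analysis was possible because the labels give no replicates.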
